A study of Ovis aries with 15 samples.

Results

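The collecting duct principal cell genes described here are 9 genes, AQP2, AQP3, SCNN1A, SCNN1B, SCNN1G, HSD11B2, AVPR2, FXYD4 and NR3C2, chosen by symbol as textbook markers of this cell out of the 25592 genes measured in sheep kidney RNA. All 9 were found, and all 9 were among the 13162 genes that passed the filter on low values, an FPKM (fragments scaled to transcript length and library size) of at least 1 in at least 5 of 14 libraries. The principal cell is the salt- and water-handling cell of the collecting duct, the last tubule segment before urine leaves the kidney. Vasopressin, the antidiuretic hormone, binds the receptor AVPR2 on its basolateral side and raises cAMP, which sends the water channel AQP2 to the apical membrane, and water then leaves the cell through AQP3 on the basolateral side. Aldosterone acts in the same cell through the mineralocorticoid receptor NR3C2, which HSD11B2 shields from cortisol, and raises sodium uptake through the epithelial sodium channel ENaC, built from the subunits SCNN1A, SCNN1B and SCNN1G, while FXYD4 is a small partner of the basolateral sodium pump.

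The study fed aflatoxin B1 (AFB1), a mould toxin that the liver activates, to Dorper × Small-tailed Han male sheep aged 4 months, and asked whether curcumin (CUR), the yellow polyphenol of turmeric, alters the injury to gut and kidney. The CON group had the basal diet, the AFB1 group ate AFB1 at 500 µg per kg of dry matter, and AFB1_CUR sheep ate that same dose plus CUR at 800 mg/kg, all for 21 days. Each group had 6 sheep, housed 2 to a pen, and kidney RNA of 5 sheep per group was sequenced after slaughter, 15 libraries in all. No group received CUR alone, the renal zone that was frozen for RNA is not stated, and the genotype, cell type and batch fields of the labels are blank.

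The library labelled AFB1 replicate 1 stood apart from the other 14 and went against its kidney label. It held 8 counts of AQP2 against 51314 to 177177 elsewhere, 0 counts of SCNN1B, SCNN1G and FXYD4, 44 of SCNN1A, 66 of HSD11B2, 19 of AVPR2 and 59 of NR3C2, where 3 counts, the level that a count of 0 allows, corresponded to 0.0535 CPM (counts scaled to library size). AQP3, a glycerol and water channel of many epithelia, was the exception, with 1479 counts or 13.7 FPKM, 44.8% of its median in the other libraries. The summed FPKM of 15 hepatocyte genes was 56531 there and 70.8 to 388 in the others, and that of 6 thick ascending limb genes was 0.884 there and 201 to 2060 in the others. Every value below is from the 5 CON, 4 AFB1 and 5 AFB1_CUR libraries that remained unless all 15 are named. Total counts per library were 50255295 to 68747047 in CON, 53609682 to 62999325 in AFB1 and 55108041 to 65706914 in AFB1_CUR, so that the lowest member count in the 14 libraries, 75 for FXYD4, lay well above the counting floor.

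No member differed between groups by the rule used here, an unadjusted p under 0.05 with a fold change above 1.5. The study gives these thresholds without saying whether its p was adjusted. The count was 0 of 9 in AFB1 against CON, where 1.76% of all tested genes were called, 0 of 9 in AFB1_CUR against AFB1, where 0.935% were, and 0 of 9 in AFB1_CUR against CON, where 1.63% were. With a Benjamini-Hochberg adjusted p under 0.05 over all tested genes, edgeR's quasi-likelihood test called 0 genes of any kind in each comparison, while an unadjusted p under 0.05 was reached by 664, 303 and 723 genes (5.04%, 2.30% and 5.49%), and DESeq2 called 22, 3 and 1, of which none was a member. No member had FPKM ranges that did not overlap between groups, as 1.54%, 0.676% and 0.722% of all genes did in the same order. What the data did show was a steep order of levels among the 9 genes, 16 of the 36 pairs of them with a correlation from sheep to sheep past the adjusted threshold (10 with group means removed), and FXYD4 and AQP3 as a pair that went with each other and, of the other members, most with AVPR2.

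**Figure D1:**
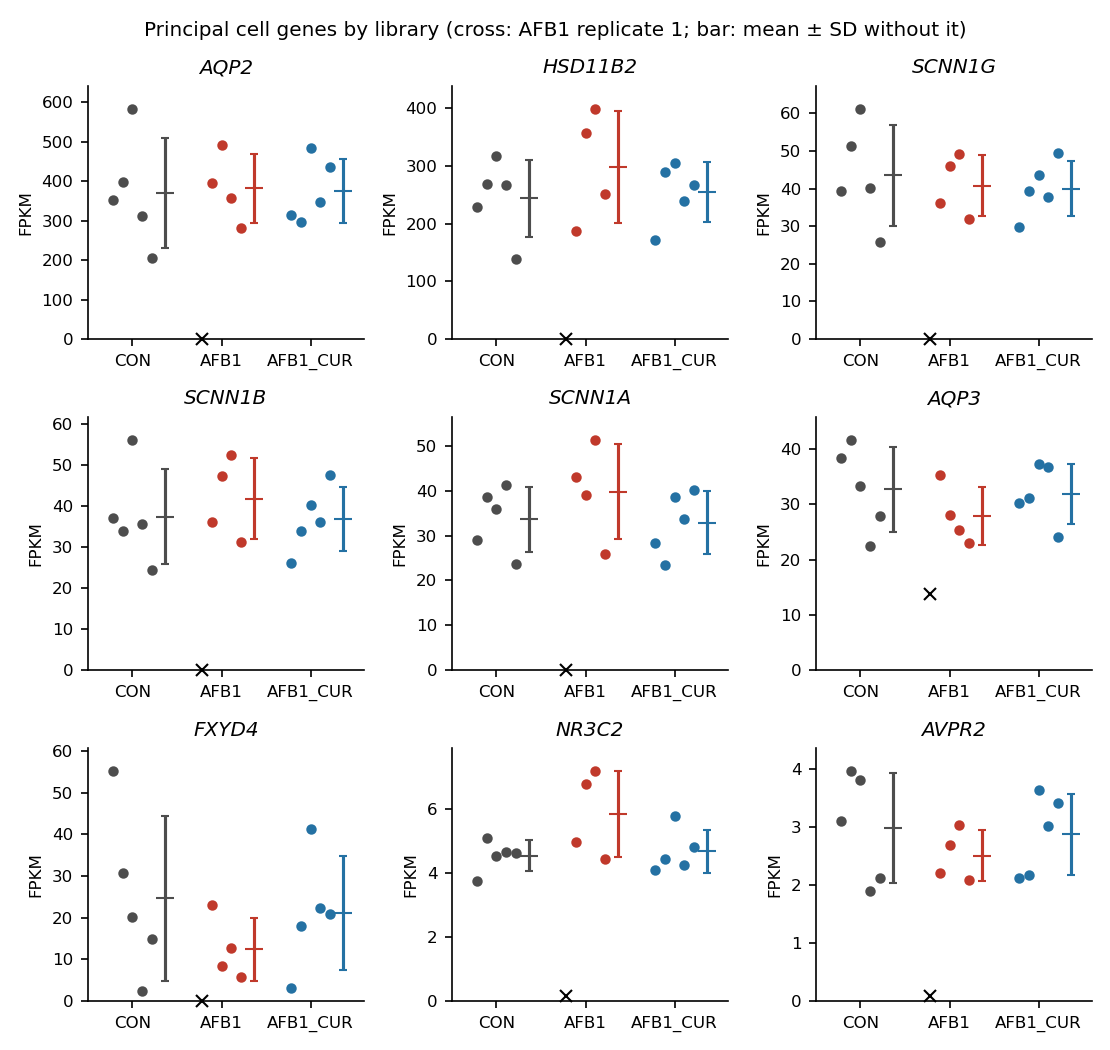
FPKM (vertical axes, linear from 0) of each of the 9 genes in every library of the CON, AFB1 and AFB1_CUR groups; points are libraries, the cross is AFB1 replicate 1, and bars are the mean ± SD without it. The groups overlap for every gene, the cross lies at or near 0 for every gene but AQP3, and FXYD4 has the widest scatter within groups.

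AQP2, the vasopressin-regulated water channel on chromosome 3 (136344087 to 136352276, minus strand), had the highest level of the members. Its FPKM was 352, 399, 582, 313 and 205 in CON replicates 1 to 5, 396, 490.1, 357 and 282 in AFB1 replicates 2 to 5, and 314, 297, 482, 346 and 437 in AFB1_CUR replicates 1 to 5. The lowest and the highest library were both controls, CON replicate 5 and CON replicate 3, so the CON range enclosed those of both treated groups. The means were 370.2 ± 139 FPKM (SD, n = 5) in CON, 381 ± 86.7 (SD, n = 4) in AFB1 and 375 ± 80.7 (SD, n = 5) in AFB1_CUR. The fitted log2 change was 0.03 ± 0.27 (SE) in AFB1 against CON, with a 95% interval of -0.54 to 0.60 and an edgeR p of 0.914 (adjusted p = 0.995). In AFB1_CUR against AFB1 it was -0.07 ± 0.27 (SE), with an interval of -0.64 to 0.50, a comparison in which the adjusted p of every member rounded to 1.0. Both changed sign with a library left out. The first went from -0.12 without CON replicate 5 to 0.26 without CON replicate 3, and the second from -0.18 without AFB1_CUR replicate 3 to 0.0516 without AFB1 replicate 3.

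AQP3, the basolateral exit channel on chromosome 2 (37724693 to 37730555, plus strand), lay an order of magnitude lower. Its FPKM was 38.3, 41.6, 33.3, 22.5 and 27.9 in CON, 35.2, 28.0, 25.3 and 23.0 in AFB1, and 30.2, 31.1, 37.2, 36.7 and 24.1 in AFB1_CUR. The highest values were in CON replicates 1 and 2, and the groups overlapped widely. The log2 estimate was -0.24 ± 0.18 (SE) in AFB1 against CON (edgeR, unadjusted p = 0.195, adjusted p = 0.965), and 0.14 ± 0.18 (SE) in AFB1_CUR against AFB1. Leaving out each library in turn took the first from -0.34 without CON replicate 4 to -0.16 without CON replicate 1, and the second from 0.0673 without AFB1_CUR replicate 4 to 0.23 without AFB1_CUR replicate 5. The ratio of AQP2 to AQP3 ranged from 7.36 to 18.1 over the 14 libraries, with a mean log2 ratio of 3.45 ± 0.50 (SD, n = 5) in CON, 3.76 ± 0.28 (SD, n = 4) in AFB1 and 3.55 ± 0.40 (SD, n = 5) in AFB1_CUR.

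AVPR2, the vasopressin V2 receptor on the X chromosome (80375322 to 80380269, minus strand), had the lowest level of the 9 in all 3 groups. Its FPKM was 3.10, 3.97, 3.804, 1.901 and 2.12 in CON, 2.21, 2.70, 3.04 and 2.09 in AFB1, and 2.13, 2.17, 3.65, 3.02 and 3.41 in AFB1_CUR. CON replicates 1 to 3 were high, and CON replicates 4 and 5 lay near or below the lowest AFB1 library. The log2 estimate in AFB1 against CON was -0.24 ± 0.25 (SE; edgeR, unadjusted p = 0.345, adjusted p = 0.965) and that in AFB1_CUR against AFB1 was 0.14 ± 0.25 (SE; unadjusted p = 0.590). With each library left out in turn they ranged from -0.36 without AFB1 replicate 4 to -0.13 without CON replicate 3, and from 0.0335 without AFB1_CUR replicate 3 to 0.26 without AFB1 replicate 4. These levels came from 420 to 1113 counts per library.

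The 3 ENaC subunits had like levels in FPKM, which depends on the transcript length used. In counts per library they were at 12264 to 25959 for SCNN1A, 3896 to 10845 for SCNN1B and 5271 to 15153 for SCNN1G. SCNN1A, the pore subunit that the channel cannot do without, lies on chromosome 3 (209827371 to 209853819, plus strand), apart from SCNN1G and SCNN1B, the subunits that bring the channel to full activity, which are neighbours on the plus strand of chromosome 24 at 21409384 to 21438725 and 21521452 to 21595074, with 82726 bases between them. SCNN1A was at 28.9, 38.7, 36.02, 41.2 and 23.7 FPKM in CON, at 43.1, 39.0, 51.3 and 25.9 in AFB1, and at 28.4, 23.5, 38.7, 33.6 and 40.2 in AFB1_CUR. SCNN1B was at 37.0, 34.1, 56.1, 35.6 and 24.5 FPKM in CON, at 36.2, 47.3, 52.6 and 31.2 in AFB1, and at 26.2, 33.9, 40.4, 36.2 and 47.7 in AFB1_CUR. SCNN1G was at 39.3, 51.4, 61.2, 40.1 and 25.9 FPKM in CON, at 36.1, 46.1, 49.2 and 31.9 in AFB1, and at 29.7, 39.5, 43.5, 37.9 and 49.4 in AFB1_CUR. CON replicate 3 held the highest and CON replicate 5 the lowest value of both SCNN1B and SCNN1G, whereas SCNN1A was highest in AFB1 replicate 4 and lowest in AFB1_CUR replicate 2. In AFB1 against CON the log2 estimates were 0.23 ± 0.22 (SE) for SCNN1A, 0.15 ± 0.23 (SE) for SCNN1B and -0.09 ± 0.21 (SE) for SCNN1G, and in AFB1_CUR against AFB1 they were -0.32 ± 0.22, -0.25 ± 0.23 and -0.10 ± 0.21 in that order. None of these passed the unadjusted threshold in edgeR's test, whose p was 0.168 to 0.665 over the 6 estimates. Single libraries moved them by over 1.5 times. In AFB1 against CON, SCNN1A was at 0.0617 without AFB1 replicate 4 and 0.36 without AFB1 replicate 5, and SCNN1B at 0.00528 without AFB1 replicate 4 and 0.34 without CON replicate 3. In AFB1_CUR against AFB1, SCNN1A was at -0.16 without AFB1 replicate 4 and -0.45 without AFB1 replicate 5, and SCNN1B at -0.10 without AFB1 replicate 4 and -0.35 without AFB1_CUR replicate 5. SCNN1G changed sign. It went from -0.23 without CON replicate 5 to 0.0628 without CON replicate 3 in the first comparison, and from -0.18 without AFB1 replicate 2 to 0.0200 without AFB1 replicate 4 in the second.

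HSD11B2, the enzyme that turns cortisol into inactive cortisone, lies on chromosome 14 (34603697 to 34609406, plus strand) and was second in level to AQP2. Its FPKM was 228, 269, 318, 267 and 139 in CON, 187, 357, 399 and 251 in AFB1, and 172, 290.1, 306, 239.9 and 267 in AFB1_CUR. The highest values were in AFB1 replicates 3 and 4 and the lowest in CON replicate 5, but AFB1 replicate 2 was below 4 of the 5 CON libraries. The log2 estimate was 0.29 ± 0.26 (SE; edgeR, unadjusted p = 0.275, adjusted p = 0.965) in AFB1 against CON and -0.31 ± 0.26 (SE; unadjusted p = 0.252) in AFB1_CUR against AFB1. Without AFB1 replicate 2 the estimates were 0.49 (edgeR, unadjusted p = 0.0642) and -0.50 (unadjusted p = 0.0573), and without AFB1 replicate 4 they were 0.11 (unadjusted p = 0.690) and -0.13 (unadjusted p = 0.650), the ends of their ranges with a library left out.

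NR3C2, the mineralocorticoid receptor gene on chromosome 17 (9717153 to 10151949, plus strand), came nearest to a difference. Its FPKM was 3.75, 5.09, 4.52, 4.65 and 4.61 in CON, 4.96, 6.77, 7.17 and 4.44 in AFB1, and 4.09, 4.42, 5.76, 4.25 and 4.82 in AFB1_CUR. AFB1 replicates 3 and 4 exceeded all 10 libraries of the other groups, while AFB1 replicates 2 and 5 lay inside both other ranges. The log2 estimate was 0.36 ± 0.15 (SE) in AFB1 against CON, with a 95% interval of 0.04 to 0.69, an unadjusted edgeR p of 0.0321 and an adjusted p of 0.957. In AFB1_CUR against AFB1 it was -0.39 ± 0.15 (SE), with a 95% interval of -0.71 to -0.06, an unadjusted edgeR p of 0.0241 and an adjusted p of 1.0. Both estimates were below 1.5-fold, both rest on the same 4 AFB1 libraries, and at an unadjusted p under 0.05 at any fold 5.04% and 2.30% of all tested genes stood beside this 1 of 9 members in each comparison. Without AFB1 replicate 2 the estimates were 0.46 (edgeR, unadjusted p = 0.00986) and -0.49 (unadjusted p = 0.00739), and without AFB1_CUR replicate 3 the second was -0.48 (unadjusted p = 0.00629). At the other end, without AFB1 replicate 4 the estimates were 0.23 (edgeR, unadjusted p = 0.148) and -0.26 (unadjusted p = 0.115). Without AFB1 replicate 3 they were 0.31 (edgeR, unadjusted p = 0.0922) and -0.33 (unadjusted p = 0.0725), and the first p also missed the threshold without CON replicate 1 (unadjusted p = 0.0756) and the second without AFB1_CUR replicate 2 (unadjusted p = 0.0536). With AFB1 replicate 1 included, the estimates shrank to 0.06 and -0.08.

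FXYD4, the regulator of the sodium pump on chromosome 25 (13119827 to 13124017, plus strand), varied far more than the others. Its FPKM was 55.2, 30.7, 20.1, 2.52 and 14.8 in CON, 23.0, 8.39, 12.8 and 5.67 in AFB1, and 3.06, 18.0, 41.2, 22.4 and 20.997 in AFB1_CUR. The lowest and the highest library, CON replicate 4 and CON replicate 1, were again both controls, 21.9-fold apart. The log2 estimate was -1.02 ± 0.73 (SE) in AFB1 against CON, the largest in size of any member in that comparison, but its 95% interval ran from -2.58 to 0.55 (edgeR, unadjusted p = 0.186). Without CON replicate 1, the highest library, the estimate was -0.45 (edgeR, unadjusted p = 0.534). Without CON replicate 4, the lowest, it was -1.31 (edgeR, unadjusted p = 0.0586), and without AFB1 replicate 2 it was -1.43 (unadjusted p = 0.105). In AFB1_CUR against AFB1 it was 0.73 ± 0.73 (SE), with an interval of -0.83 to 2.29 (edgeR, unadjusted p = 0.332), and it lay between 0.32 without AFB1_CUR replicate 3 (unadjusted p = 0.672) and 1.14 without AFB1 replicate 2 (unadjusted p = 0.182) when each library was left out. The first interval thus held falls of more than 1.5-fold, and the second held changes of that size in both directions.

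**Figure D2:**
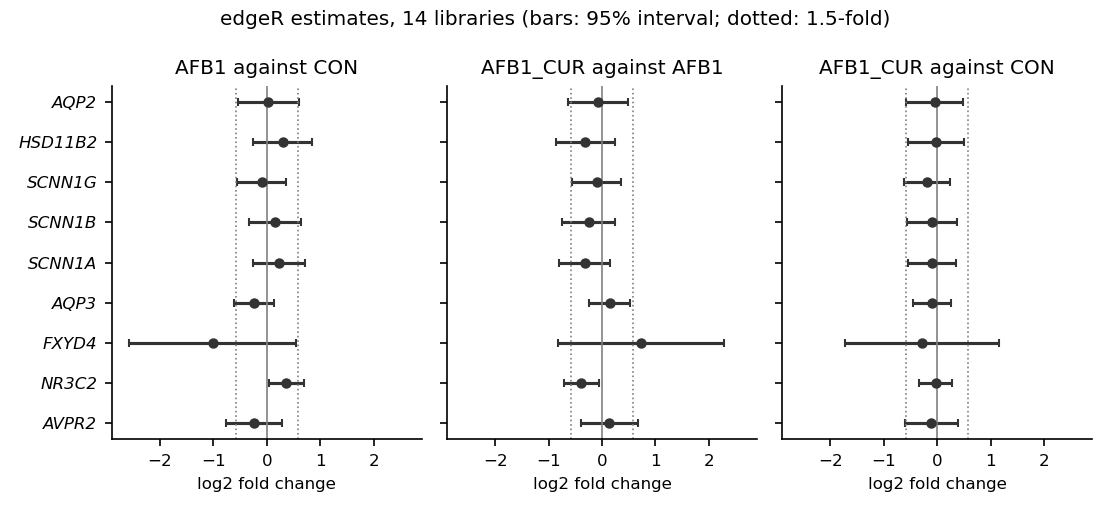
Log2 fold change (horizontal axes) of each gene in AFB1 against CON, AFB1_CUR against AFB1 and AFB1_CUR against CON; points are edgeR estimates over 14 libraries, bars are 95% intervals and dotted lines mark 1.5-fold. The NR3C2 intervals of the first and second comparison leave out 0, at 0.04 to 0.69 and -0.71 to -0.06, and FXYD4 has the widest interval in each panel.

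Across the 9 genes, 5 estimates were above 0 and 4 below in AFB1 against CON, with a median log2 change of 0.03 beside 0.02 over all tested genes. In AFB1_CUR against AFB1, 3 were above 0 and 6 below, with a median of -0.10 beside 0.00. In AFB1_CUR against CON all 9 were below 0, from -0.29 for FXYD4 to -0.01 for HSD11B2, with a median of -0.10 beside -0.00 and no p below 0.355 (edgeR). The estimates of AQP2, HSD11B2, NR3C2 and SCNN1B in that last comparison turned to 0.07, 0.09, 0.03 and 0.00 on log2(FPKM + 1) with limma, where the median of all genes was 0.06. Leaving out a single library also took 7 of the 9 above 0 in that comparison. These were AQP2 (0.18), SCNN1B (0.0964) and HSD11B2 (0.10) without CON replicate 3 and FXYD4 (0.28) without CON replicate 1. They were also SCNN1A (0.0284), AVPR2 (0.00745) and NR3C2 (0.0318) without AFB1_CUR replicate 2. In the same comparison the estimates of other cell types were below 0 for 7 of 7 proximal tubule genes (median -0.24) and 8 of 10 intercalated cell genes (median -0.06), and above 0 for 7 of 7 leukocyte genes (median 0.89). The part of these cell types in the member values was not tested. The comparisons share libraries, since AFB1 entered the first and second and CON the first and last. In whole kidney RNA, fewer principal cells and less RNA per principal cell cannot be told apart.

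Set in order of mean FPKM over the 14 libraries, which corrects for transcript length, AQP2 came first at 375 ± 98.3 (SD) and HSD11B2 second at 264 ± 70.2, with AQP2 above HSD11B2 in 13 of 14 libraries. SCNN1G followed at 41.5 ± 9.46, below HSD11B2 in 14 of 14 libraries. The next neighbours, down to AQP3, did not separate beyond their spread: SCNN1G was above SCNN1B (38.5 ± 9.35) in 11 libraries, SCNN1B above SCNN1A (35.2 ± 8.17) in 10, and SCNN1A above AQP3 (31.0 ± 6.19) in 8. FXYD4 at 19.9 ± 14.8 was below AQP3 in 12 of 14 libraries, and NR3C2 at 4.95 ± 0.983 was below FXYD4 in 12. AVPR2 at 2.81 ± 0.715 was below NR3C2 in 14 of 14. This order was the same in CON and AFB1_CUR, and in AFB1 it differed in that SCNN1B stood above SCNN1G. The order depends on the transcript lengths used for FPKM. In counts per library, FXYD4 was at 75 to 2232 and NR3C2, below it in FPKM, at 1511 to 2779.

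The coefficient of variation of the FPKM over the 14 libraries was 74.2% for FXYD4, which placed it at percentile 96.4 of all tested genes. For the other 8 it lay between 19.9% for NR3C2 and 26.6% for HSD11B2, against a median of 20.3% over all tested genes. Ranking the libraries by the mean z score of the 9 genes, CON replicate 5, AFB1_CUR replicate 1 and AFB1 replicate 5 were lowest, with 0 of 9 genes above the gene's mean. At the other end, AFB1_CUR replicate 3 had 9 of 9 above and CON replicate 3 had 8 of 9. The low and the high end of this ranking thus each held libraries of more than a single group.

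**Figure D3:**
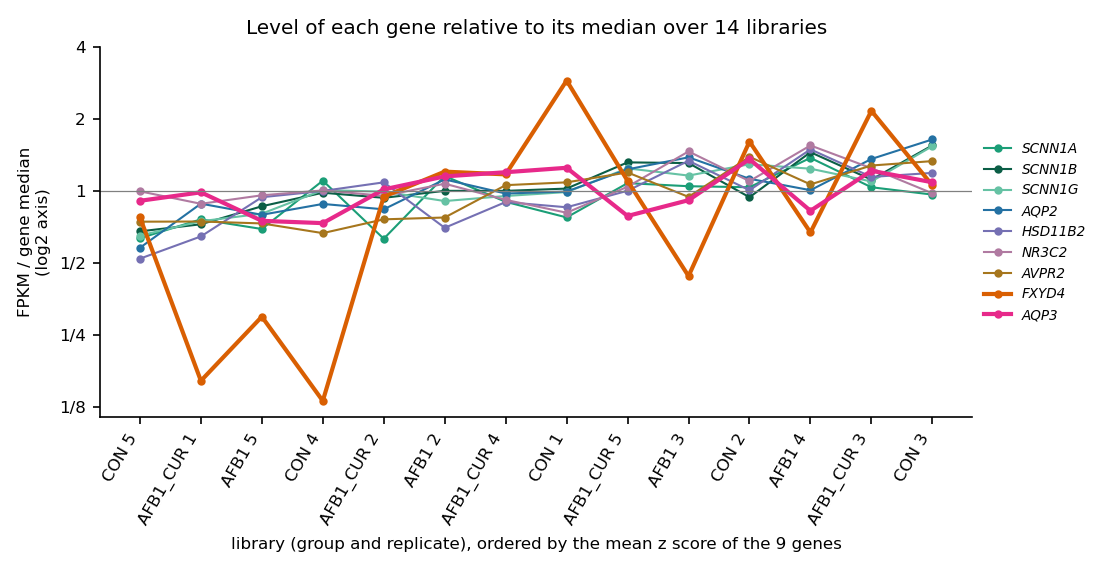
FPKM of each gene divided by its median over the 14 libraries (vertical axis, log2 scale), with libraries along the horizontal axis in order of the mean z score of the 9 genes; lines join a gene's values. The order makes the lines climb from left to right, most genes stay within a narrow band, FXYD4 dips lowest in CON replicate 4 and peaks in CON replicate 1, and AQP3 keeps a flatter course.

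Of the 36 pairs of members, 31 had a positive Pearson r on log2(FPKM + 1) over the 14 libraries, and 16 had a Benjamini-Hochberg adjusted permutation p under 0.05 over the 36 pairs. The latter count was 10 with group means removed, and 10 also when CON replicate 1, AFB1_CUR replicate 1 or AFB1_CUR replicate 3 was left out. Over all 86612541 pairs of the 13162 tested genes, 58.5% had a positive r, with a median of 0.09 beside 0.53 for the members, and 8.66% reached 0.613, the smallest r of a member pair that passed, as 44.4% of the member pairs did. The points share the libraries, whose groups are pooled here, so these shares are a description, and r with group means removed is given for each pair that passed and is named. SCNN1B and SCNN1G were the closest pair, with r = 0.887 (permutation p = 3e-05, adjusted p = 0.00108) and a Spearman rho of 0.754 (permutation p = 0.00253, adjusted p = 0.0152). With group means removed r was 0.925, without the 2 libraries farthest from the median of SCNN1B, CON replicates 3 and 5, it was 0.783, and it lay between 0.845 and 0.970 when each library was left out in turn. AQP2 went with SCNN1G at r = 0.836 (permutation p = 0.00025, adjusted p = 0.00389), rho = 0.767 (permutation p = 0.00207, adjusted p = 0.0149), 0.858 with group means removed and 0.632 without its 2 farthest libraries. HSD11B2 had r = 0.823 with SCNN1B (permutation p = 0.0004, adjusted p = 0.00389), rho = 0.688 (permutation p = 0.00782, adjusted p = 0.0282), 0.815 with group means removed and 0.764 without the 2 farthest. All 4 genes of these 3 pairs act in sodium or water uptake or guard the receptor that drives it.

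AQP3 and FXYD4, both with products in the basolateral membrane, went with each other and mostly not with the rest. Their r was 0.728 (permutation p = 0.00317, adjusted p = 0.0163), their rho 0.829 (permutation p = 0.00044, adjusted p = 0.00792), their r with group means removed 0.709 and without the 2 farthest libraries 0.631, and the adjusted p stayed under 0.05 in 14 of 14 fits that left out a library. By r, AQP3 passed in 1 of its 8 pairs, with a median r of 0.08, and FXYD4 passed in 2, the other being AVPR2 at r = 0.690 (permutation p = 0.00602, adjusted p = 0.0241) with rho = 0.732 (permutation p = 0.00388, adjusted p = 0.0175) and 0.589 without its 2 farthest libraries. With group means removed the r of FXYD4 and AVPR2 was 0.671, which no longer passed (permutation p = 0.0225, adjusted p = 0.0624). In contrast SCNN1B and SCNN1G each passed in 5 of 8 pairs. AQP3 and NR3C2 had the lowest r of all pairs, -0.20 (permutation p = 0.501, adjusted p = 0.623), with rho = -0.13 (permutation p = 0.661, adjusted p = 0.781).

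NR3C2 passed with SCNN1A, at r = 0.665 (permutation p = 0.00836, adjusted p = 0.0274), rho = 0.723 (permutation p = 0.00466, adjusted p = 0.0186) and 0.738 without the 2 farthest libraries. It also passed with HSD11B2, its guarding enzyme, at r = 0.624 (permutation p = 0.0174, adjusted p = 0.0417), but the rho of 0.609 did not (permutation p = 0.0234, adjusted p = 0.0585), and with group means removed neither pair of NR3C2 did (r = 0.620 and 0.591, permutation adjusted p = 0.0858 and 0.110). AQP2 and HSD11B2, the pair with the highest levels, went together at r = 0.626 (permutation p = 0.0169, adjusted p = 0.0417), while their rho was 0.604 (permutation p = 0.0244, adjusted p = 0.0585) and their r with group means removed 0.629 (permutation p = 0.0376, adjusted p = 0.0858), neither of which passed. That relation rested on CON replicates 3 and 5, since r was 0.339 without them.

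**Figure D4:**
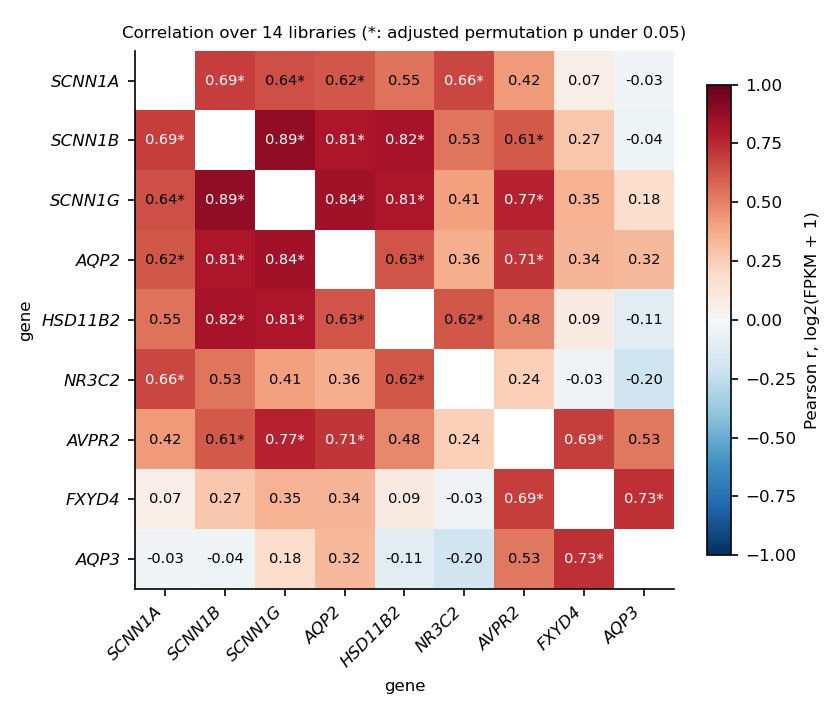
Pearson r on log2(FPKM + 1) over 14 libraries for each pair of the 9 genes (both axes are genes, colour is r), with a star where the adjusted permutation p is under 0.05. The block of AQP2, HSD11B2 and the ENaC subunits is positive throughout, with SCNN1B and SCNN1G highest at 0.887, and AQP3 is near or below 0 with most genes other than FXYD4 and AVPR2.

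Ratios between members were compared because principal cells express both genes of each ratio, although members, AQP3 and NR3C2 among them, need not be confined to that cell. In all, 7 ratios in 3 comparisons gave 21 two-sided exact permutation tests. The ratio of SCNN1B to SCNN1G was 0.942, 0.662, 0.918, 0.888 and 0.948 in CON, 1.005, 1.03, 1.07 and 0.978 in AFB1 replicates 2 to 5, and 0.884, 0.858, 0.927, 0.956 and 0.964 in AFB1_CUR. The AFB1 libraries were thus above every library of both other groups, and SCNN1G exceeded SCNN1B in 5 of 5 CON, 1 of 4 AFB1 and 5 of 5 AFB1_CUR libraries. How often ratios between other genes separate the groups in this way was not measured. The mean log2 ratio was -0.21 ± 0.22 (SD, n = 5) in CON, 0.03 ± 0.05 (SD, n = 4) in AFB1 and -0.12 ± 0.07 (SD, n = 5) in AFB1_CUR. The difference of AFB1 minus CON was 0.24 on the log2 scale and that of AFB1_CUR minus AFB1 was -0.15, each with an exact permutation p of 0.0159, the smallest that 4 against 5 libraries can give, and an adjusted p of 0.167 over the 21 tests, so neither passed the correction. Leaving out each library in turn gave differences of 0.14 to 0.27 and of -0.17 to -0.13, and the 0.14 came without CON replicate 2. The exact permutation p of these fits, 0.0159 to 0.0357, were each the smallest possible, since leaving out a library cannot undo the separation of the groups. AFB1_CUR and CON differed by 0.09 (exact permutation p = 0.595). Since both differences rest on the same 4 AFB1 libraries, they are a single pattern seen from either side.

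**Figure D5:**
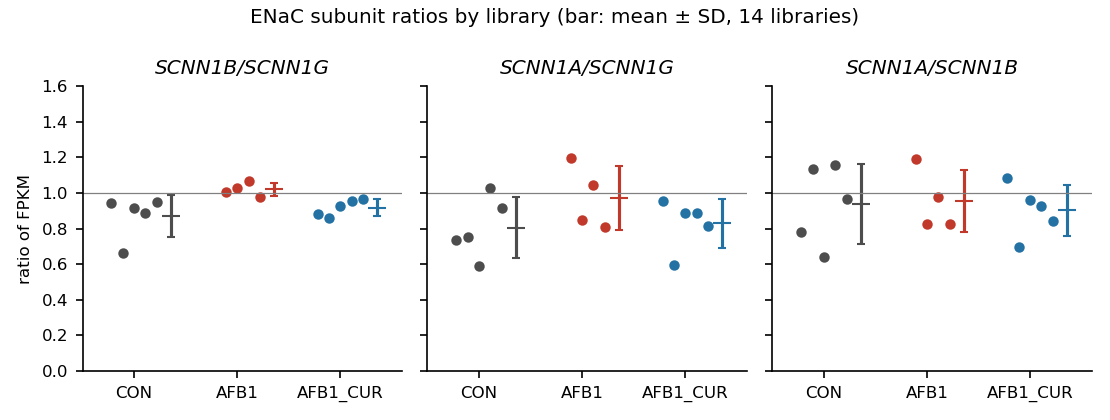
Ratio of the FPKM of SCNN1B to SCNN1G, SCNN1A to SCNN1G and SCNN1A to SCNN1B (vertical axis, linear from 0) in each library of the CON, AFB1 and AFB1_CUR groups; bars are the mean ± SD and the grey line marks a ratio of 1. In the first panel the AFB1 points, 0.978 to 1.07, lie above all CON and AFB1_CUR points, which reach 0.948 and 0.964, while the groups overlap in the other panels.

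The remaining 6 ratios, AQP2 to AQP3, AVPR2 to AQP2, SCNN1A to SCNN1B, SCNN1A to SCNN1G, HSD11B2 to NR3C2 and FXYD4 to AQP2, gave adjusted p of 0.857 to 0.881 (exact permutation tests). The ratio of SCNN1A to SCNN1G was 0.589 to 1.03 in CON, 0.810 to 1.19 in AFB1 and 0.596 to 0.956 in AFB1_CUR. The ratio of HSD11B2 to NR3C2, enzyme to receptor, ranged from 30.2 to 70.2 in CON and from 37.7 to 56.6 in AFB1. FXYD4 was 0.00806 to 0.157 of AQP2 in CON, a wider range than the 0.0171 to 0.0579 in AFB1 and the 0.00975 to 0.0855 in AFB1_CUR.

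Genes around the members were read against the same shares of all tested genes, 1.76% called in AFB1 against CON, 0.935% in AFB1_CUR against AFB1 and 1.63% in AFB1_CUR against CON. Among 15 other transport genes of the principal cell and collecting duct, 10 were tested and 0 were called in any comparison. Abundant genes of this list included FXYD2, the gamma subunit of the sodium pump (1009 FPKM on average over the 14 libraries), and ATP1B1, its beta subunit (491), which other tubule segments express as well. The cation channel TRPV4 had a log2 estimate of -0.58 ± 0.23 (SE; edgeR, unadjusted p = 0.0231, adjusted p = 0.957) in AFB1 against CON, from 37.9 ± 3.35 to 25.4 ± 6.20 FPKM (mean ± SD, n = 5 and n = 4), which fell short of 1.5-fold, and one of -0.51 ± 0.21 (SE; unadjusted p = 0.0310) in AFB1_CUR against CON.

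Upstream of AQP2, the vasopressin and cAMP list had 16 of 17 genes tested and 1 called higher, PRKAR2B, a regulatory subunit of protein kinase A. It was at 0.951 ± 0.301 FPKM in CON (SD, n = 5) and 2.08 ± 1.39 in AFB1_CUR (SD, n = 5), a log2 change of 1.02 ± 0.39 (SE; edgeR, unadjusted p = 0.0204, adjusted p = 0.823). Without AFB1_CUR replicate 2 it was no longer called, at 0.61 (edgeR, unadjusted p = 0.0930). GNAS, the stimulatory G protein that couples AVPR2 to cAMP, was at 114 FPKM, and PRKAR1A and PRKAR2A at 78.2 and 31.4. Of 16 genes that move AQP2 to and from the membrane, all were tested and 0 were called. HSPA8 (506 FPKM), EZR (198) and MAL (134) led in level, and the vesicle protein VAMP2 had a log2 estimate of -0.29 ± 0.13 (SE; edgeR, unadjusted p = 0.0413) in AFB1 against CON and -0.27 ± 0.12 (SE; unadjusted p = 0.0378) in AFB1_CUR against CON. RAB27A, a small GTPase of vesicle transport, went the other way in the latter comparison, with a log2 estimate of 0.28 ± 0.13 (SE; edgeR, unadjusted p = 0.0422).

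Around ENaC, the list of its proteases, kinases and ligases had 14 of 14 tested and 1 called lower in AFB1_CUR against AFB1. That gene was KLK1, tissue kallikrein of the connecting tubule, at 337 ± 70.4 FPKM in CON (SD, n = 5), 458 ± 197 in AFB1 (SD, n = 4) and 278 ± 59.8 in AFB1_CUR (SD, n = 5), a log2 change of -0.79 ± 0.28 (SE; edgeR, unadjusted p = 0.0132, adjusted p = 1.0). The call was lost without AFB1 replicate 4, at -0.57 (edgeR, unadjusted p = 0.0642), and with all 15 libraries. PRSS8, the channel-activating protease, was at 164 FPKM and the kinase WNK1 at 64.97. SGK1, the aldosterone-induced kinase that keeps ENaC at the membrane, had a log2 estimate of 0.46 ± 0.21 (SE; edgeR, unadjusted p = 0.0457, adjusted p = 0.957) in AFB1 against CON, from 48.9 ± 5.75 to 66.7 ± 16.1 FPKM (mean ± SD, n = 5 and n = 4). ST14, the membrane protease matriptase, had a log2 estimate of -0.45 ± 0.21 (SE; edgeR, unadjusted p = 0.0471) in AFB1_CUR against AFB1. SGK1 stands also in the mineralocorticoid receptor list, of which 13 of 13 genes were tested and 0 called. The receptor's chaperones HSP90AA1 (219 FPKM), HSP90AB1 (168) and FKBP4 (89.4) led that list.

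Of 14 transcription factors of the collecting duct, 13 were tested and 0 called. TFCP2L1 (55.9 FPKM) and PAX8 (35.9) were among the most abundant, and 12 of the 13 estimates were below 0 in AFB1_CUR against AFB1, with a median of -0.22 beside 0.00 over all genes. Among them GRHL2, at -0.38 ± 0.18 (SE; edgeR, unadjusted p = 0.0488), had an unadjusted p under 0.05. The intercalated cell, the acid-base cell that shares this duct, had 10 of 11 listed genes tested and 0 called. Its estimates were below 0 for 9 of 10 in the same comparison, with a median of -0.25. In AFB1 against CON, which rests on the same AFB1 libraries, 8 of 10 were above 0 (median 0.22). So were 9 of the 13 transcription factors (median 0.10). The leading genes were CA2 (604 FPKM), the proton pump subunit ATP6V1B1 (194) and the ammonia channel RHCG (41.0).

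Markers of neighbouring segments also varied between libraries. The summed FPKM of the intercalated cell list was 687 to 1146, that of 7 proximal tubule genes 692 to 1873, that of 6 thick ascending limb genes 201 to 2060 and that of 9 genes of the medulla and its osmolytes 121 to 382. Leading genes of these lists were SLC22A8 (338 FPKM on average), SLC5A2 (321) and AQP1 (199) for the proximal tubule, UMOD (729.5), SLC12A1 (97.5) and CLDN10 (78.4) for the thick ascending limb, and CRYAB (146), SLC6A6 (22.6) and AKR1B1 (17.1) for the medulla. None of the tested genes of these 3 lists was called, and SLC6A6, the taurine carrier, had a log2 estimate of -0.45 ± 0.20 (SE; edgeR, unadjusted p = 0.0391) in AFB1 against CON. For the distal convoluted and connecting tubule, KLK1, CALB1 (176) and SLC12A3 (78.4) led, the summed FPKM was 418 to 579 to 688 in CON (lowest, median and highest), 470 to 803 to 1039 in AFB1 and 514 to 551 to 592 in AFB1_CUR, and KLK1 was the 1 of 6 called. The part of tissue composition in the member values was not tested.

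Lists of cells outside the nephron were also measured. The urothelium list, a check for pelvis in the tissue, was at a low level and summed to 0.294 to 4.72 FPKM, with UPK1A at 1.08, UPK3B at 0.244 and UPK1B at 0.23 on average. The hepatocyte list, at 70.8 to 388 FPKM in sum, led with SERPINA1 (111 FPKM), TF (48.1) and APOA2 (12.7) and had 1 of 10 tested genes called. That was ALB, lower in AFB1_CUR against AFB1 by a log2 estimate of -3.75 ± 1.34 (SE; edgeR, unadjusted p = 0.0143, adjusted p = 1.0), with AFB1 values from 0.0443 to 23.9 FPKM, and without AFB1 replicate 2 it was -2.63 and not called (edgeR, unadjusted p = 0.0686). Of 7 tested leukocyte genes, led by PTPRC (12.8), CSF1R (11.9) and CD3E (11.3), CD68 was called higher in AFB1_CUR against CON (log2 change 1.95 ± 0.89, SE; edgeR, unadjusted p = 0.0455, adjusted p = 0.823), and the list summed to 13.2 to 236 FPKM. All 7 estimates were above 0 in that comparison, with a median of 0.89, and all 7 were above 0 in AFB1 against CON as well, with a median of 0.75. The CD68 call was lost in 8 of 14 fits that left out a library, with the lowest estimate, 0.73, without AFB1_CUR replicate 2. Their part in the member values was not tested.

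Ranked by Pearson r with the mean z score of the members over the 14 libraries, and given as a description, the 10 likest of 13153 other tested genes were HES1 (0.924), ATP6V1B1 (0.922), KCNQ1 (0.909), EPN3 (0.902), GRB10 (0.890), TINAGL1 (0.886), L1CAM (0.884), TMEM213 (0.881), LOC101116550 (0.880) and SMAD6 (0.878). ATP6V1B1 belongs to the intercalated cell, the neighbour of the principal cell in the duct, and HES1 is a target of Notch signalling. Measured against AQP2 alone, HES1 was again first at 0.914, and SCNN1G was the 6th and SCNN1B the 18th of 13161 genes. Seen from AQP3, FXYD4 was the 22nd of 13161, while AQP2 was the 3023rd.

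The genes likest to 2 members, named after their values were seen, differed from that list. NR3C2 went most with ADRB1 (0.905), SLC12A3 (0.867), the thiazide-sensitive cotransporter of the distal convoluted tubule, and KCNJ10 (0.850), a basolateral potassium channel. FXYD4 went most with PEX6 (0.866) and SGTA (0.856).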

How the data were processed

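Polyadenylated kidney RNA of 5 sheep per group was sequenced as strand-marked paired-end libraries. The authors removed adapters and low-quality reads with cutadapt 1.9 and aligned with HISAT2 2.2.1, and the submitters' notes also name StringTie 2.1.6, edgeR and DESeq2. They deposited raw read counts and FPKM per gene, the authors' normalization for length and depth. For the genome build and the counting settings, strand included, nothing was given in the sources used here. Start and end matched NCBI RefSeq's table for ARS-UI_Ramb_v3.0 for 24848 of 24947 shared symbols, and chromosome numbers come from that table. Groups were taken from sample titles, because the treatment field counts upward within a group. The numbered libraries are separate sheep by the study's methods.

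The deposited counts of 14 libraries (AFB1 replicate 1 set apart) were tested with edgeR 4.0.16 (R 4.3.3; TMM, quasi-likelihood, 1 model for the 3 groups) on the 13162 genes that reached an FPKM of 1 in 5 or more libraries. Genes were called at unadjusted p under 0.05 and fold above 1.5, the study's thresholds with its p read as unadjusted, and adjusted by Benjamini-Hochberg over all tested genes. DESeq2 1.42.0 and limma 3.58.1 on log2(FPKM + 1) and log2(FPKM + 0.1) were alternatives. Ratios were tested by exact permutation and pairs by 100000 permutations (scipy 1.17.1). A count of 0 allows 3 counts, which covers counting error only. Scripts were tested on simulated data. Named genes were all members, and of each list the called genes and the 3 with the highest mean FPKM, with the 10 likest genes, except a few that are not reported here; those under 1.5-fold with an unadjusted p under 0.05 were named after their values were seen. The members and lists were chosen with earlier results of these data known. No sequences are shown, as none was in the reference used here.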

Additional observations from a re-analysis of the deposited data

Results flagged for a closer look

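CON replicate 2 had a SCNN1B to SCNN1G ratio of 0.662, far below the other 4 CON libraries at 0.888 to 0.948, with a gap to the nearest of them of 0.791 of the whole CON range. Dixon's test at the 95% level picked it out of 57 sets of a gene or ratio in a group, of which chance picks about 1 in 20. In that library SCNN1B was at 34.1 FPKM, within the CON range of 24.5 to 56.1, and SCNN1G at 51.4, within 25.9 to 61.2. Without it the AFB1 minus CON difference of the log2 ratio was 0.14, beside 0.24 with it.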

How the results depend on the processing

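No member passed the rule of unadjusted p and fold in any of the 22 alternatives to each of the 27 member estimates. The numbers of all genes called, 232, 123 and 214 in AFB1 against CON, AFB1_CUR against AFB1 and AFB1_CUR against CON, became 639, 525 and 131 with all 15 libraries, 867, 707 and 928 without the filter on low values, where more genes were tested, and 105, 81 and 80 with limma on log2(FPKM + 1). Leaving out each library in turn gave 206 to 458, 120 to 271 and 123 to 312, the highest without AFB1 replicate 5, AFB1 replicate 2 and AFB1_CUR replicate 1, and the low of 123 without AFB1_CUR replicate 2. With all 15 libraries the AFB1 against CON estimates turned to -0.29 for AQP2, -0.0898 for SCNN1A, -0.17 for SCNN1B and -0.0239 for HSD11B2, and those of AFB1_CUR against AFB1 to 0.25 for AQP2, 0.0766 for SCNN1B, 0.23 for SCNN1G and 0.0145 for HSD11B2. In AFB1_CUR against CON, limma on log2(FPKM + 1) and log2(FPKM + 0.1) gave 0.0738 and 0.0741 for AQP2, 0.0870 and 0.0875 for HSD11B2, 0.0334 and 0.0394 for NR3C2, and 0.00037 and 0.00088 for SCNN1B. The cause of these turns was not tested.

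Leaving out each library in turn, the estimates that changed sign ranged from -0.12 to 0.26 for AQP2 and -0.23 to 0.0628 for SCNN1G in AFB1 against CON, from -0.18 to 0.0516 for AQP2 and -0.18 to 0.0200 for SCNN1G in AFB1_CUR against AFB1, and, in AFB1_CUR against CON, from -0.19 to 0.18 for AQP2, -0.20 to 0.0284 for SCNN1A, -0.22 to 0.10 for SCNN1B, -0.16 to 0.10 for HSD11B2, -0.22 to 0.00745 for AVPR2, -0.69 to 0.28 for FXYD4 and -0.11 to 0.0318 for NR3C2. Among log2 ratios, the same gave -0.0805 to 0.13 for SCNN1A/SCNN1B and -0.26 to 0.0719 for HSD11B2/NR3C2 in AFB1 against CON, -0.15 to 0.0295 and -0.0246 to 0.20 in AFB1_CUR against AFB1, and, in AFB1_CUR against CON, -0.0627 to 0.26 for AQP2/AQP3, -0.16 to 0.0552 for SCNN1A/SCNN1B, -0.0545 to 0.17 for SCNN1A/SCNN1G, -0.00999 to 0.12 for SCNN1B/SCNN1G, -0.15 to 0.15 for HSD11B2/NR3C2 and -0.76 to 0.42 for FXYD4/AQP2. The SCNN1B/SCNN1G differences against AFB1 kept their direction in every alternative. With a library left out no other outcome was possible, since AFB1 lay above every library of both other groups. Read counts in place of FPKM, chosen after seeing the data, gave 0.24 and -0.15 (exact permutation p = 0.0159 each). This is no separate check, because a ratio of counts is the FPKM ratio times a nearly fixed length factor. Pairs past the adjusted threshold numbered 10 with group means removed, 13 by rho, 11 on FPKM without a log, and 10 to 15 with a library left out.

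Deviations from group means of 13 same-numbered pairs of libraries correlated at -0.31 to 0.60, with a median of 0.12 and over 0.1 in 7. Replicate 2 gave 0.44 for CON and AFB1_CUR, 0.40 for CON and AFB1, and 0.60 for AFB1_CUR and AFB1. Pairs with different numbers lay between -0.60 and 0.44. Whether libraries of the same number share a factor was not tested. The replicate block gave 228, 150 and 282 called genes, turned FXYD4 and HSD11B2 in AFB1_CUR against CON to 0.0291 and 0.00402, and gave NR3C2 an edgeR p of 0.0554 and 0.0378 in the first and second comparison. NR3C2 had an unadjusted p under 0.05 in 17 of 22 alternatives in the first and 15 of 22 in the second. These counts include fits without a library of the group not compared, which hardly move the estimate. The second, for instance, stayed at -0.39 with each CON library left out in turn. Intervals of 4 or 5 sheep per group limit what could be seen, most of all for FXYD4.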
